A study of Mus musculus with 2 samples.

Results

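The elastic fibre genes described here are 9 genes chosen by name from the 28380 genes counted in the series: Eln, Fbn1, Mfap4, Mfap5, Fbln1, Fbln2, Fbln5, Emilin1 and Loxl1. They were followed through marker-gated endothelial, mural and stromal cells of postnatal day 30 (P30) mouse bone. All 9 were detected in both libraries. No cell was assigned to a class by any of them.

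Elastic fibres let arteries and other tissues recoil after stretch. They are made of a core of cross-linked elastin, encoded by Eln, that is laid down on a scaffold of microfibrils built from fibrillin-1, encoded by Fbn1, and microfibril-associated proteins. Fibulins bring tropoelastin to the scaffold, lysyl oxidase family enzymes cross-link it, and in large arteries smooth muscle is the main source of elastin while the endothelium contributes to the internal elastic lamina.

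Single cells were taken from the femur and tibia of C57BL/6 mice of both sexes and sequenced as 1 Control and 1 Dach1OE library, each holding cells pooled from 2 mice. Control mice had the genotype Dach1OE +/f, a conditional Dach1 transgene with no Cre. Dach1OE mice had the genotype Apj CreERT2 - Dach1OE +/f, so that tamoxifen switched on Dach1 in cells with Aplnr-driven Cre, and both groups received tamoxifen. Blood-lineage cells were depleted before capture, so the share of any class in a library also depends on that enrichment. With 1 library per group there is no replicate, genotype and library cannot be told apart, and no test across mice was possible. All levels are unique molecular identifiers (UMIs) of a gene per 1000000 UMIs of all genes (CPM), summed over the cells of a class, with an exact 95% interval that covers counting error only.

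The Control library held 28720 cells with 143986818 UMIs and the Dach1OE library 32028 cells with 166999989 UMIs. Filters left 26466 and 29317 cells with medians of 3793.5 and 4055 UMIs, of which 8151 and 8500 were endothelial cells (ECs). Dach1 measured 4.66 CPM in Control ECs and 204 CPM in Dach1OE ECs, which matched the labels. All 10 general EC markers were detected in aECs and rECs, but ECs were gated by these same markers, so this is no check of the gates. The libraries shared 1049 cell indices, 879 of them among kept cells of both, and 19.1% of these fell in the same class against 19.5% if classes were independent. Cells of 3 gates need a remark, since type R ECs (rECs) also carried the smooth muscle gene Tagln, the fibroblast gate was led by the tendon genes Tnmd, Thbs4 and Kera, and the Scgb3a1 EC gate held only 38 Control cells. Gates are ranges of a marker score, and 24.4% of Control and 26.5% of Dach1OE ECs lay near a cut.

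Eln, the gene of the elastin core, lies on the reverse strand of chromosome 5 at 134702593 to 134747323 (GRCm38). In the Control library it measured 2538 CPM in rECs (interval 2453 to 2625), 2435 CPM in smooth muscle cells (2362 to 2510), 1953 CPM in pericytes (1880 to 2029) and 744 CPM in arterial ECs (aECs; 696 to 795). The values of rECs and smooth muscle overlapped, and the other neighbours in this order did not. In the Dach1OE library it measured 3414 CPM in aECs (3357 to 3472), 3142 CPM in smooth muscle cells (3075 to 3209), 1756 CPM in rECs (1690 to 1823) and 569 CPM in pericytes (544 to 596). Thus aECs moved from the fourth place to the first, and none of these 4 intervals overlapped.

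Below these classes, Eln ranged from 65.9 CPM in Adipoq-Lepr stroma to 424 CPM in lymphatic ECs in the Control library, leaving out classes at background. Osteoblasts at 17.6 and chondrocytes at 15.5 CPM were at the level of haematopoietic cells, 16.2 CPM, which should not make elastin. In the Dach1OE library haematopoietic cells measured 35.9 CPM, against 38.2 CPM in osteoblasts, 34.8 CPM in osteocytes and 26.1 CPM in chondrocytes. Eln in these classes was therefore not read as expression, and its source was not tested. Fibroblasts held 210 and 214 CPM in the Control and Dach1OE libraries, with overlapping intervals.

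**Figure D1:**
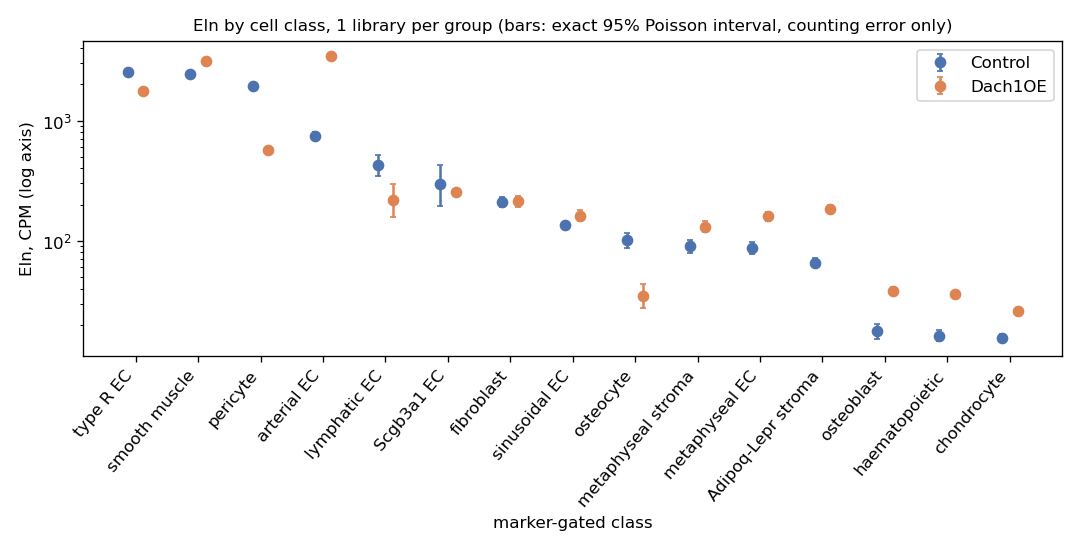
CPM of Eln on a log axis in 15 marker-gated classes, 1 point for each library (blue, Control and orange, Dach1OE), with exact 95% Poisson intervals. Arterial ECs stand at 744 in Control and 3414 in Dach1OE, pericytes at 1953 and 569, and fibroblasts at 210 and 214.

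ECs held a large part of all Eln UMIs. Of all 21345 Eln UMIs of kept Control cells 36.5% were in ECs, 19.8% in smooth muscle cells and 12.4% in pericytes. In the Dach1OE library these shares were 50.8%, 19.3% and 4.23%. Of the 26466 kept Control cells 8151 were ECs, 632 smooth muscle cells and 455 pericytes. Of the 29317 kept Dach1OE cells 8500, 1175 and 1069 were in these classes. Smooth muscle markers were looked at in the same ECs. The 8 markers of that list summed to 51.8 CPM in Control and 55.6 CPM in Dach1OE aECs, with 1 and 0 of them at 0, and to 759 and 549 CPM in rECs, with 2 and 3 at 0 and nearly all of the sum in Tagln. Acta2 measured 15.0 and 23.0 CPM in aECs, and Eln in aECs without any UMI of Acta2, Tagln or Myh11 measured 543 and 3321 CPM, against 744 and 3414 CPM in all aECs. Among rECs, 48.1% of Control and 36.5% of Dach1OE cells had such a UMI, and Eln measured 1489 and 1158 CPM in the rest, against 2538 and 1756 CPM in all rECs. The part of smooth muscle RNA in these levels was not tested.

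Eln was next counted as a share of cells. After each cell was thinned to 1000 UMIs, Eln was detected in 28.5% of Control aECs (23.7 to 33.8) and 57.7% of Dach1OE aECs (54.6 to 60.7). For rECs the shares were 62.3% and 44.4%, for smooth muscle cells 60.6% and 72.3%, and for pericytes 43.5% and 19.9%. In the Dach1OE library smooth muscle cells thus stood above aECs by share, while aECs stood above them by CPM. Haematopoietic cells gave 1.02% and 2.31%. Before thinning, the shares in aECs were 50.2% and 70.7% and in haematopoietic cells 4.38% and 8.35%, at median depths of 3055 and 3263 UMIs for aECs and 5405.5 and 5378 for haematopoietic cells. Thinning left out 3 Control and 16 Dach1OE aECs. Within the gate Eln was uneven, and 50% of the 891 UMIs of Control aECs lay in 13 cells while 50% of the 13638 UMIs of Dach1OE aECs lay in 87.

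**Figure D2:**
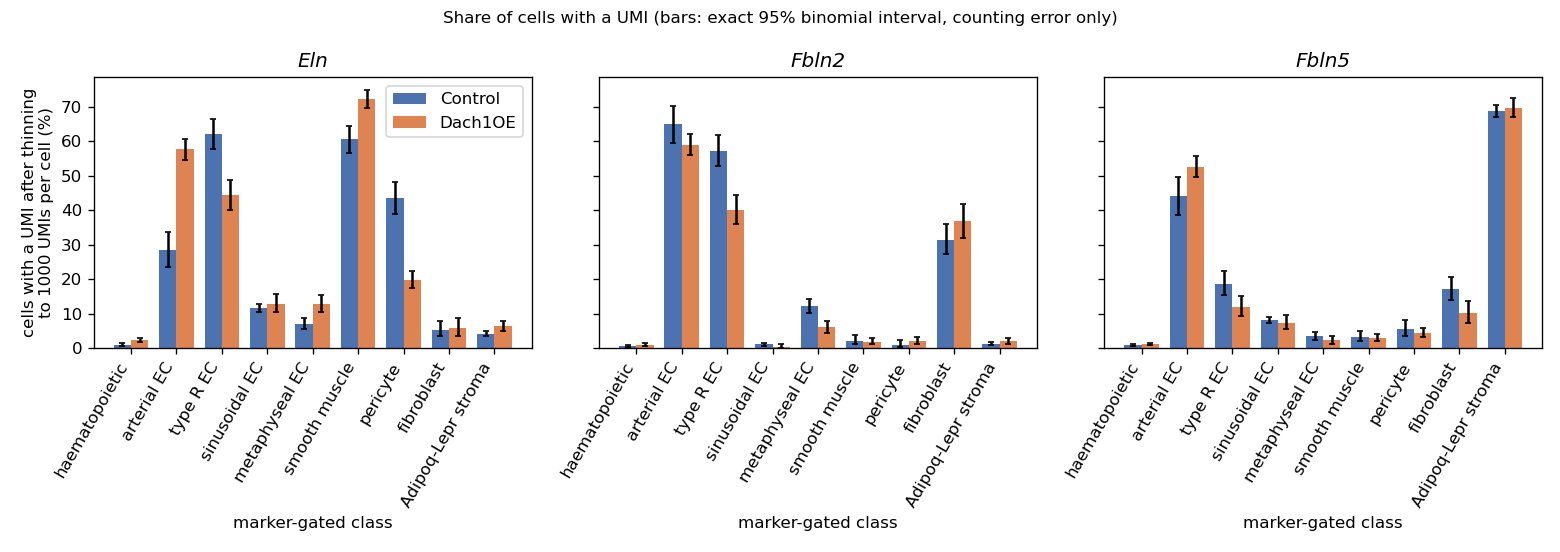
Percent of cells with at least 1 UMI of Eln, Fbln2 or Fbln5 after thinning every cell to 1000 UMIs, in 9 marker-gated classes for each library, with exact 95% binomial bars. Eln is found in 28.5% and 57.7% of arterial ECs, Fbln5 in 68.9% and 69.8% of Adipoq-Lepr stroma, and each gene in under 3% of haematopoietic cells.

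The fibulins bridge elastin and other matrix proteins. Fbln2, on the forward strand of chromosome 6 at 91212455 to 91272540, measured 1387 CPM in Control aECs and 1793 CPM in Dach1OE aECs. Its next classes were rECs with 1198 and 1078 CPM and fibroblasts with 556 and 524 CPM. It was low in mural cells, at 31.1 and 45.3 CPM in smooth muscle and 16.9 and 31.8 CPM in pericytes, so that Fbln2 and Eln shared the arterial and type R endothelium and parted in the vessel wall. Thinned to 1000 UMIs, 65.0% and 59.0% of aECs held a Fbln2 UMI against 0.731% and 1.04% of haematopoietic cells.

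Fbln5, on the reverse strand of chromosome 12 at 101746565 to 101819055, encodes a fibulin that binds both elastin and the cross-linking enzyme LOXL1. The study lists it among its arterial markers, and it was kept out of the gates here. It measured 710 CPM in Control and 1254 CPM in Dach1OE aECs. Its level in Adipoq-Lepr stroma, the marrow reticular cells that also make Cxcl12, was 1340 and 1424 CPM, above that of Control aECs and with the interval of the Dach1OE stroma (1386 to 1463) above that of Dach1OE aECs (1219 to 1289). In metaphyseal stroma it measured 415 and 298 CPM and in rECs 246 and 142 CPM. Fbln5 thus had an endothelial and a stromal site, and in smooth muscle cells it reached only 46.1 and 51.6 CPM.

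The promoters of these 2 fibulins are shown because both genes were high in aECs while only Fbln5 was high in Adipoq-Lepr stroma. The sequences are those of RefSeq on GRCm38.p6, from 250 bases before to 50 after the start, which cover 5 of the 9 genes. Capitals mark matches on either strand to 5 short motifs. These are the GC box, spelled GGGCGG, the TATA box, spelled TATAAA, the CCAAT box, named by its letters, a site of the Notch partner RBPJ, spelled GTGGGAA, and a SMAD-binding element, spelled CAGAC. A match describes the letters and is no evidence of a bound factor.
Fbln2, chr6:91212514-91212813, forward strand: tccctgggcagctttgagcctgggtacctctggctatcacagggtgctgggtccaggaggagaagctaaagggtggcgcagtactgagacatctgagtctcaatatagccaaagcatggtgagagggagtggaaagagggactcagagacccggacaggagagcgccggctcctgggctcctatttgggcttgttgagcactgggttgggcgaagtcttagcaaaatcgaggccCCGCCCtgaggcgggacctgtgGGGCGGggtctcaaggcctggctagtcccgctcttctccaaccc
Fbln5 downstream start, chr12:101818435-101818734, reverse strand: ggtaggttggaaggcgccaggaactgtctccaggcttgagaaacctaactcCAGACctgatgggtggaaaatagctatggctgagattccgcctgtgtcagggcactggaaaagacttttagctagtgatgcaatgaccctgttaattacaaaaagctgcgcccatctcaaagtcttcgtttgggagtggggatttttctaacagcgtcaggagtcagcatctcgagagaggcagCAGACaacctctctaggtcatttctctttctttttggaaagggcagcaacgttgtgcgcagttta
Fbln5 upstream start, chr12:101819070-101819369, reverse strand: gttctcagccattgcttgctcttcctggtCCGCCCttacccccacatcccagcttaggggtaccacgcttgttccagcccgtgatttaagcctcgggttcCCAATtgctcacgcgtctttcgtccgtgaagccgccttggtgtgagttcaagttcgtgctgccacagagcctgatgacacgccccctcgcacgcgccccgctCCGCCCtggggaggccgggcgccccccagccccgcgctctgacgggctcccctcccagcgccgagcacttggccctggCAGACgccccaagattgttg

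The Fbln2 window held 2 GC boxes and none of the other motifs. The downstream Fbln5 window held 2 SMAD elements, and the upstream one 2 GC boxes, 1 CCAAT box and 1 SMAD element. A GC box was found in 35.7% of all 32851 promoter windows, a CCAAT box in 37.4%, a SMAD element in 49.6%, a TATA box in 13.6% and the RBPJ motif in 6.38%. The G and C content was 60.3% for Fbln2 and 48.7% and 65.7% for the Fbln5 windows, against a median of 52.7%. The Fbn1 window held 1 GC box and 1 RBPJ motif, and the Emilin1 window 1 CCAAT box and 2 SMAD elements.

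Fbln1, another fibulin of the elastic fibre, was a stromal gene here. It measured 238 and 208 CPM in Adipoq-Lepr stroma and 126 and 154 CPM in metaphyseal stroma, and only 1.34 and 1.85 CPM in all ECs, on 38 and 53 UMIs.

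Microfibril genes were highest outside the endothelium. Fbn1, the fibrillin of the microfibril backbone, measured 1612 and 2092 CPM in fibroblasts, 1253 and 1317 CPM in Adipoq-Lepr stroma and 688 and 818 CPM in pericytes. In smooth muscle cells it was 98.0 and 122 CPM, so that pericytes and smooth muscle cells, both with Eln, differed in this scaffold gene in each library, with intervals apart. Among ECs, Fbn1 was found in aECs at 120 and 219 CPM and rECs at 220 and 129 CPM. Lymphatic ECs held 106 and 113 CPM, against 8.96 and 8.01 CPM in sinusoidal ECs.

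Mfap4 and Mfap5 encode microfibril-associated proteins, and both were mostly fibroblast genes. Mfap4 measured 853 and 458 CPM in fibroblasts, and in metaphyseal stroma 25.4 and 44.5 CPM. Mfap5 measured 816 and 1065 CPM in fibroblasts, 107 and 118 CPM in metaphyseal stroma and 75.5 and 88.1 CPM in smooth muscle cells. Over all ECs both stayed at or under 2.13 CPM, and the highest EC subtype values were 17.7 CPM for Mfap4 in Control lymphatic ECs and 5.36 CPM for Mfap5 in Dach1OE lymphatic ECs. These 2 values rest on few UMIs of 59 Control and 50 Dach1OE cells, and Mfap5 in Control rECs was close at 5.29 CPM. Emilin1, a glycoprotein at the interface of elastin and microfibrils, had the flattest profile, with 225 and 220 CPM in metaphyseal stroma, 173 and 178 CPM in chondrocytes and 126 and 135 CPM in metaphyseal ECs. Loxl1, the elastin cross-linking enzyme, was highest in Adipoq-Lepr stroma with 380 and 388 CPM and metaphyseal stroma with 300 and 326 CPM, and measured 61.1 and 66.6 CPM in smooth muscle cells.

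**Figure D3:**
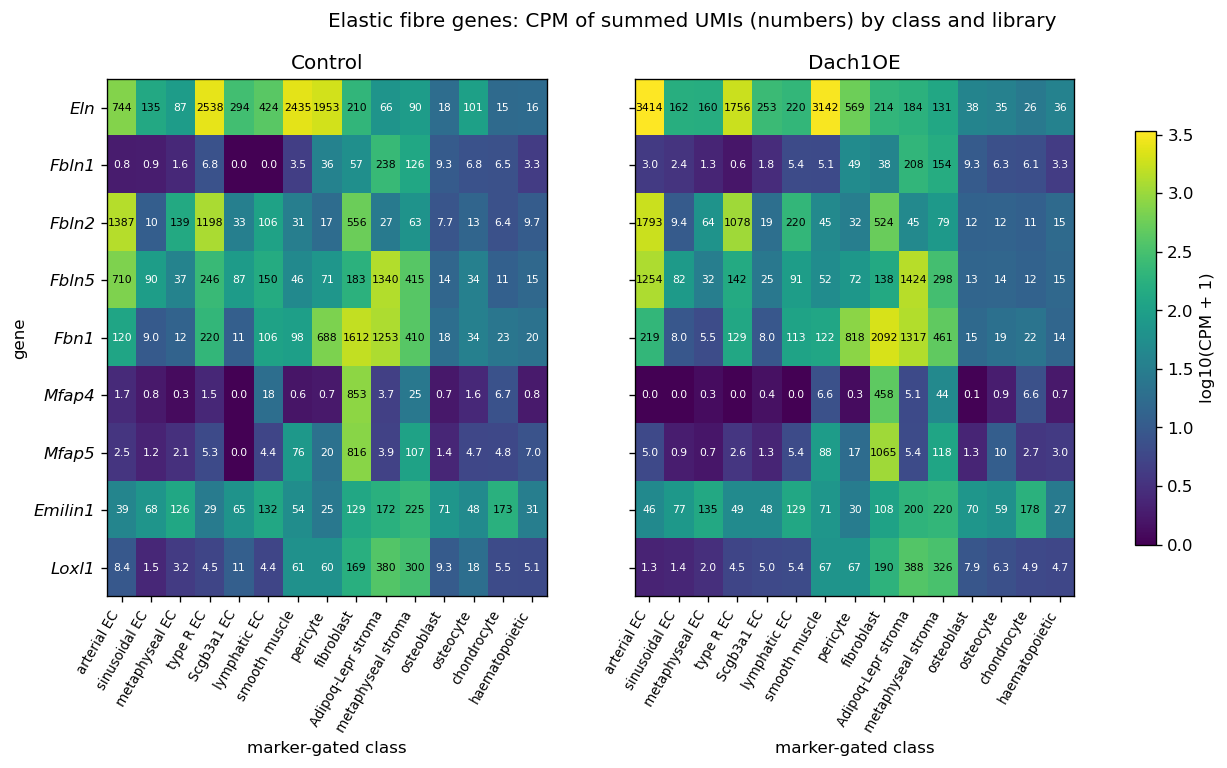
CPM of the 9 genes (rows) in 15 marker-gated classes (columns) of the Control (left) and Dach1OE (right) libraries, with the CPM printed in each cell and the colour giving log10(CPM + 1). Eln and Fbln2 are high in arterial and type R ECs, Fbln5 in arterial ECs and Adipoq-Lepr stroma, Fbn1 in stroma, fibroblasts and pericytes, and Mfap4 and Mfap5 in fibroblasts.

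The arterial pattern was next measured within each library. In the Control library aECs exceeded all other ECs 2.92-fold in Eln, 11.5-fold in Fbln2, 7.64-fold in Fbln5 and 5.56-fold in Fbn1. In the Dach1OE library the same folds were 9.37, 13.5, 22.2 and 11.8. Every log2 interval of these 8 values lay above 1. Of all genes tested, 8.70% in Control and 6.72% in Dach1OE were at least 2-fold higher in aECs, and 9.90% and 10.7% lower. Emilin1 went the other way, with 39.3 CPM in Control aECs against 79.8 CPM in the other ECs and 46.3 against 76.1 CPM in the Dach1OE library. Loxl1 was higher in Control aECs, at 8.35 against 2.54 CPM, and lower in Dach1OE aECs, at 1.25 against 3.42 CPM. Its aEC values rest on 10 and 5 UMIs. Haematopoietic cells held 5.15 and 4.69 CPM of Loxl1, so no difference was read from these values. The other ECs include the rECs. In the Control library Eln was 18.5-fold and Fbln2 18.3-fold higher in rECs than in the ECs of neither gate, folds of 2 or more being found for 8.51% of genes, and in the Dach1OE library 6.47-fold and 15.5-fold, with 6.92% of genes. In the same comparison Fbn1 was 19.2-fold and 11.6-fold higher in Control and Dach1OE, and Fbln5 2.90-fold and 2.80-fold. The ECs of neither gate held 11.5 and 11.1 CPM of Fbn1, under the 20.4 and 13.7 CPM of haematopoietic cells. The size of the Fbn1 folds was therefore not read. Emilin1 was lower in rECs, at 28.7 against 82.4 CPM in Control and 48.7 against 77.9 CPM in Dach1OE. Without the rECs among the other ECs, a setting chosen after seeing the data, the log2 ratio of Eln in aECs was 2.44 in place of 1.55 in Control and 3.65 in place of 3.23 in Dach1OE.

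Several members were detected in the same aECs. Among thinned Control aECs with Eln, 87.1% held Fbln2, 73.1% Fbln5 and 21.5% Fbn1, against 56.2%, 32.6% and 8.58% of those without Eln. In the Dach1OE library the shares were 83.0%, 73.2% and 29.8% against 26.4%, 24.5% and 4.36%. Fbln2, Fbln5 and Fbn1 were thus more often found in aECs with Eln in both libraries, though in the Control library 233 of the thinned aECs had no Eln UMI against 93 with one, so that many cells with Fbln2 or Fbln5 had none. Emilin1 was not more frequent in cells with Eln, with 3.23% against 3.86% in Control and 5.22% against 5.73% in Dach1OE. These cells share libraries and depth, and the shares are a description. The arterial gate also mixed clusters that differed in Eln, Fbln2 and Fbln5, as given below, and these shares were not counted within a cluster.

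The design compares ECs with and without Dach1 overexpression. In all ECs Eln measured 275 CPM in Control and 790 CPM in Dach1OE, a log2 ratio of 1.52 (1.48 to 1.56). Fbln2 measured 174 and 365 CPM (1.06, 1.02 to 1.11), Fbln5 119 and 224 CPM (0.91, 0.85 to 0.97) and Fbn1 25.8 and 46.5 CPM (0.85, 0.72 to 0.98). The intervals of these 4 genes did not overlap between the libraries, and the Dach1OE library was higher for each. Without the aECs and rECs, a setting chosen after seeing the data, the log2 ratio was 0.98 for Eln and 0.088 for Fbln2. Fbln5 turned direction, to -0.75, and Fbn1 was at -0.042. Fbn1 measured 11.5 CPM in Control and 11.1 CPM in Dach1OE there, under the 20.4 and 13.7 CPM of haematopoietic cells. No change of Fbn1 was read from these values.

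A ratio counted as large when it was at least 2-fold on 20 or more UMIs. All 9 genes had that many in ECs. Eln and Fbln2 were at least 2-fold higher, which 3.96% of all 15612 genes were. Mfap4 was at least 2-fold lower, as were 3.36% of genes, at 0.812 CPM from 23 UMIs and 0.350 CPM from 10, so that its interval (-2.45 to -0.09) reached nearly to 0. Haematopoietic cells held 0.829 and 0.739 CPM of Mfap4, so no change was read from these values. Emilin1 with 78.1 and 71.9 CPM and Loxl1, Fbln1 and Mfap5 stayed within 2-fold. The median log2 ratio of the 9 was 0.47, and 0.03 over all genes. Without the aECs and rECs 0 members were at least 2-fold higher, and likewise 0 with equal weight of each EC subtype, where Eln was at 0.53. ECs that fell in no subtype, 2770 Control and 3330 Dach1OE cells, were also measured. There Eln had the highest log2 ratio of the 8 members with enough UMIs, 1.13, against a median of 0.04 over all genes.

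**Figure D4:**
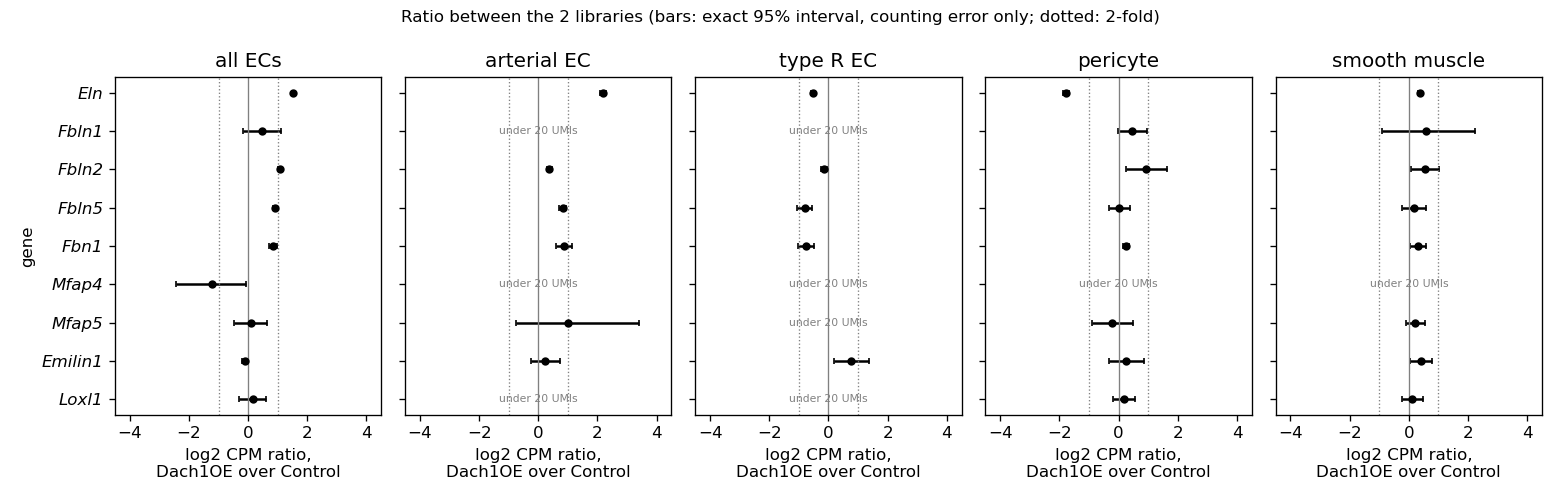
Log2 ratio of CPM, Dach1OE over Control, of the 9 genes in all ECs, arterial ECs, type R ECs, pericytes and smooth muscle cells, with exact 95% intervals for counting error and dotted lines at 2-fold. Eln is at 1.52 in all ECs, 2.20 in arterial ECs, -0.53 in type R ECs, -1.78 in pericytes and 0.37 in smooth muscle cells.

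Within aECs Eln had the highest ratio of the 6 members with enough UMIs. Its log2 ratio was 2.20 (2.10 to 2.30), from 744 to 3414 CPM, against 0.37 (0.29 to 0.45) for Fbln2, 0.82 (0.71 to 0.93) for Fbln5, 0.86 (0.61 to 1.13) for Fbn1 and 0.24 (-0.23 to 0.73) for Emilin1. Mfap5 was at 0.998 (-0.76 to 3.39), just short of 2-fold, on only 3 and 20 UMIs. Of these 6, 1 was at least 2-fold higher, as were 5.75% of genes, and 0 lower, as were 3.94%. Fbln1, Mfap4 and Loxl1 had under 20 UMIs in aECs.

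The gate did not hold the same cells in both libraries. ECs were clustered without the 9 genes, and 75.4% of Control aECs fell in cluster 10, led by Car7, Dkk2 and Esm1, and 9.12% in cluster 16, led by H19, Wfdc1 and Clu. Of Dach1OE aECs 12.0% fell in cluster 10 and 76.7% in cluster 16. Both clusters were named arterial from the same marker scores, but held different levels of Eln, Fbln2 and Fbln5. Of their leading genes, Esm1 is a marker of the metaphyseal EC gate and Wfdc1 of the Scgb3a1 EC gate.

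In cluster 16, with 65 Control and 1153 Dach1OE cells, Eln measured 5496 and 4024 CPM, a log2 ratio of -0.45 (-0.55 to -0.34). Fbln2 measured 3872 and 2023 CPM and Fbln5 2344 and 1373 CPM there. In cluster 10, with 365 and 186 cells, Eln measured 308 and 651 CPM, a log2 ratio of 1.08 (0.88 to 1.27), Fbln2 1234 and 1256 CPM and Fbln5 575 and 898 CPM. Thus Eln was lower in the Dach1OE library in the cells with most of it and higher in the others, and with equal weight of both clusters its log2 ratio was -0.31 in place of 2.20. With that weight the ratio turned as well for Fbln2 (-0.64), Fbln5 (-0.36) and Fbn1 (-0.22). Cluster 16 is small in the Control library, and its Control values rest on few cells. It held 63.2% of all EC Eln UMIs of the Dach1OE library and 8.50% of those of Control.

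Mice of both sexes were pooled, so cells in which Xist alone was detected (Xist cells) and those with transcripts of the Y chromosome alone (Y cells) were set apart. In cluster 10 Eln had log2 ratios of 1.33 and 1.35 in the Xist and Y cells. In cluster 16 the values were 0.18 (-0.05 to 0.42) and -0.73 (-1.03 to -0.42), from 15 and 7 Control cells. The higher Eln of cluster 10 was present in cells of either sex, and the lower Eln of cluster 16 was not.

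**Figure D5:**
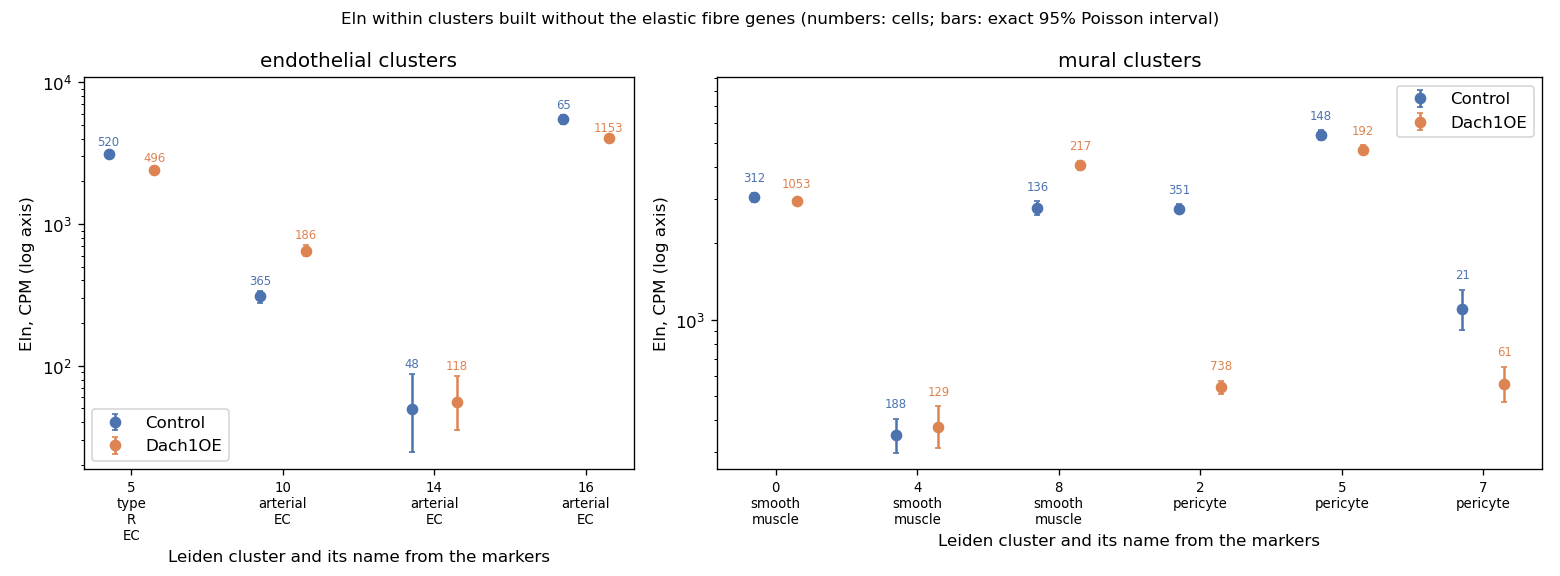
CPM of Eln on a log axis within endothelial (left) and mural (right) Leiden clusters built without the elastic fibre genes, with cluster names from marker scores, 1 point a library, exact 95% Poisson intervals and the number of cells above it. Arterial cluster 16 has 5496 and 4024 CPM, arterial cluster 10 has 308 and 651 CPM, and pericyte cluster 2 has 2746 and 539 CPM.

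In rECs Eln, Fbln2, Fbln5 and Fbn1 were lower in the Dach1OE library. Eln measured 2538 CPM in Control and 1756 CPM in Dach1OE (-0.53, -0.60 to -0.46), Fbln5 246 and 142 CPM (-0.80, -1.05 to -0.55), Fbn1 220 and 129 CPM (-0.77, -1.03 to -0.50) and Fbln2 1198 and 1078 CPM (-0.15, -0.25 to -0.05). Emilin1 measured 28.7 and 48.7 CPM (0.76, 0.18 to 1.37), on 38 and 75 UMIs. Haematopoietic cells held 31.4 and 26.8 CPM of Emilin1, above the Control value of rECs, so no change was read from it. None of the 5 members with enough UMIs passed 2-fold, where 5.0% of genes were higher and 3.18% lower. The make-up of this gate moved too, with 72.8% of Control and 59.3% of Dach1OE cells in cluster 5 and 15.8% of Dach1OE cells in cluster 12, which was almost absent from the Control library. Within cluster 5, led by Tagln, C1qtnf9 and Fmo2, Eln measured 3123 and 2399 CPM (-0.38, -0.45 to -0.31) and Fbln2 1407 and 1463 CPM. There the log2 ratio of Eln was -0.58 (-0.70 to -0.45) in Xist cells and -0.09 (-0.25 to 0.07) in Y cells. Over the whole gate it was -0.15 when Dach1OE cells with a Dach1 UMI were left out, and Fbln2 then turned to 0.13. The smooth muscle gene Tagln measured 718 and 492 CPM in rECs, lower in the library with lower Eln. Its part in the result was not tested.

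Metaphyseal ECs, the columnar vessels next to the growth plate, had 2 of 5 members at least 2-fold lower, as were 1.87% of genes, and 0 higher, as were 1.67%. Fbln2 measured 139 and 64.5 CPM (-1.11, -1.36 to -0.88) and Fbn1 12.4 and 5.53 CPM (-1.16, -2.05 to -0.33), the latter on 47 and 17 UMIs. Both Fbn1 values lay under those of haematopoietic cells, 20.4 and 13.7 CPM, so no change of Fbn1 was read from them. The ratio of Fbln2 was -0.72 in Xist cells and -1.57 in Y cells, so it stayed under 2-fold in Xist cells, and that of Fbn1 ranged from -2.44 to -0.83 over the other settings. Eln was 87.4 and 160 CPM there (0.87, 0.67 to 1.08), a ratio that was 0.35 with Leiden clusters in place of gates. In sinusoidal ECs 0 of 6 members passed 2-fold, where 2.33% of genes were higher and 3.05% lower, and Eln measured 135 and 162 CPM. In the Scgb3a1 ECs, 38 and 2077 cells, Fbln5 measured 87.1 CPM from 8 UMIs and 24.6 CPM from 166, and Eln 294 and 253 CPM with overlapping intervals. Loxl1 measured 10.9 and 5.04 CPM there, with few Control UMIs. In lymphatic ECs, 59 and 50 cells, Eln measured 424 and 220 CPM (-0.95) and Fbln2 106 and 220 CPM (1.05). These were the lowest and highest ratios of the 5 members with enough UMIs.

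Within the Dach1OE library the cells with and without a Dach1 UMI were set side by side. In all ECs Eln measured 875 CPM in 3337 cells with Dach1 and 718 CPM in 5163 cells without. In aECs the values were 3608 and 3184 CPM (log2 0.18, 0.13 to 0.23), and in rECs 988 and 2291 CPM (-1.21, -1.35 to -1.08). Cells with Dach1 were deeper, with medians of 3462 against 2541 UMIs in all ECs, and a cell without a Dach1 UMI may still carry the active transgene. Eln was thus slightly higher with Dach1 in aECs and lower with Dach1 in rECs. This split was made over whole gates and not within clusters. Of Dach1OE rECs 59.3% lay in cluster 5 and 15.8% in cluster 12, and the part of this make-up was not tested.

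Mural cells were compared the same way. Dach1 measured 1.15 and 25.2 CPM in smooth muscle cells and 8.10 and 22.1 CPM in pericytes, far under the level of Dach1OE ECs and near the 23.9 CPM of Dach1OE haematopoietic cells. In smooth muscle cells Eln measured 2435 CPM in Control and 3142 CPM in Dach1OE (0.37, 0.31 to 0.42). This ratio turned to -0.71 when only cells with under 10% mitochondrial UMIs were kept. The make-up of the gate also differed between the libraries, since cluster 0 held 33.5% of Control and 59.6% of Dach1OE cells of the gate, cluster 4 24.2% and 6.21%, and cluster 8 21.2% and 18.2%. Eln was low in cluster 4, at 348 and 377 CPM with overlapping intervals, and higher in cluster 0, at 3042 and 2935 CPM. In the same gate 0 of 8 members passed 2-fold, while 2.23% of genes were higher and 2.36% lower. In pericytes Eln measured 1953 and 569 CPM (-1.78, -1.86 to -1.69). It was the only one of 8 members at least 2-fold lower there, as were 1.85% of genes, and 0 were higher, as were 2.87%. Fbn1 measured 688 and 818 CPM (0.25, 0.14 to 0.36), Loxl1 59.6 and 66.9 CPM and Fbln5 71.4 and 72.1 CPM in the same cells.

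Among the mural clusters the difference was largest in the one with most pericytes. Pericyte cluster 2, led by H2-M9, Olfm2 and Ngfr, held 59.8% of Control and 60.4% of Dach1OE pericytes. In it Eln measured 2746 and 539 CPM (-2.35, -2.45 to -2.24), and 48.0% and 17.7% of thinned cells held a UMI. The log2 ratio was -1.79 in Xist cells and -2.58 in Y cells, so cells of both sexes had the lower level. In mural cluster 5, led by Lrrc15, Actc1 and Pappa2, Eln was 5371 and 4700 CPM (-0.19, -0.28 to -0.11), the highest Control mural level among the clusters shown. Cluster 7, led by Prc1 and Ccna2, had 1098 and 557 CPM (-0.98, -1.33 to -0.62) on 21 and 61 cells. The smooth muscle clusters went different ways. In cluster 0 the log2 ratio of Eln was -0.05 (-0.13 to 0.02), with opposite ratios of 0.85 (0.65 to 1.05) in Xist cells and -0.27 (-0.46 to -0.08) in Y cells. In cluster 8 Eln was higher, at 2764 and 4070 CPM (0.56, 0.45 to 0.67), with 0.66 in Xist cells and 1.05 in Y cells.

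Contractile genes moved with Eln in the pericyte gate. Acta2 measured 2260 and 1602 CPM and Tagln 1321 and 712 CPM. Within cluster 2 Acta2 measured 2622 and 1835 CPM (-0.51, -0.59 to -0.44) and Rgs5, a pericyte marker, 35698 and 31655 CPM (-0.17, -0.19 to -0.15). The 8 smooth muscle markers, all detected, summed to 4800 CPM in Control and 3350 CPM in Dach1OE pericytes. Acta2 and Tagln differed by less than Eln did, and their part in the result was not tested.

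In fibroblasts 0 of 9 members passed 2-fold, where 2.08% of genes were higher and 3.03% lower. Mfap4 came nearest, with 853 CPM in Control and 458 CPM in Dach1OE (-0.90, -1.02 to -0.77). It measured 761 and 608 CPM in Xist cells and 1064 and 198 CPM in Y cells, so the ratio was larger in Y cells, of which there were 83 and 72, than in Xist cells. That difference was not tested. Fbn1 and Mfap5 were higher, each by 0.38 on the log2 scale, with intervals of 0.31 to 0.44 and 0.29 to 0.48. The ratio of Mfap5 turned to -0.021 with Leiden clusters in place of gates.

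Adipoq-Lepr stroma held several of the genes at close levels in both libraries. There Fbln5 (1340 and 1424 CPM), Fbn1 (1253 and 1317 CPM), Loxl1 (380 and 388 CPM) and Fbln1 (238 and 208 CPM) all stayed within 0.20 on the log2 scale. Eln was the 1 of 9 members past 2-fold, at 65.9 and 184 CPM (1.48), where 1.22% of genes were higher and 2.10% lower. However, 50% of its 680 Dach1OE UMIs lay in 4 of 1145 cells, and 1 cell held 169. In metaphyseal stroma and chondrocytes 0 of 9 members passed 2-fold, where 2.93% and 3.58% of genes did in either direction. Osteoblasts had Eln past 2-fold too, at the level of haematopoietic cells as given above. In osteocytes 1 of 8 was higher and 3 lower, where 1.67% and 2.83% of genes were. There Eln measured 101 and 34.8 CPM, with 50% of its 192 Control UMIs in 6 cells with a Dach1OE level at that of haematopoietic cells and with a log2 ratio of 0.043 in Xist cells. Fbln5 in Dach1OE osteocytes, 13.6 CPM, was likewise at the level of haematopoietic cells, 14.5 CPM. Loxl1, the other lower gene, measured 17.8 and 6.33 CPM in osteocytes, against 5.15 and 4.69 CPM in haematopoietic cells. Mfap5, the higher gene, measured 4.72 and 10.4 CPM, against 7.02 and 2.96 CPM.

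Other genes of the elastic fibre were counted in the same way from a list of 18 that holds latent TGF-beta binding proteins, further fibulins, fibrillin-2, multimerins, emilins and lysyl oxidases. In all ECs 17 had enough UMIs, 1 was at least 2-fold higher and 2 lower, against 3.96% and 3.36% of all genes, and their median log2 ratio was 0.15. Efemp1, a fibulin, was higher at 0.494 and 1.12 CPM on 14 and 32 UMIs. Mmrn1, a multimerin of lymphatic and sinusoidal endothelium, measured 217 and 59.5 CPM (-1.86) and Loxl2, a lysyl oxidase homologue, 133 and 63.1 CPM (-1.08). Within sinusoidal ECs, which made up 3411 of 8151 Control and 650 of 8500 Dach1OE ECs, Mmrn1 measured 272 and 220 CPM (-0.31, -0.45 to -0.17), and in lymphatic ECs 1016 and 943 CPM (-0.11, -0.40 to 0.18). Loxl2 went the other way within sinusoidal ECs, at 174 and 246 CPM (0.50, 0.36 to 0.64). Ltbp4, which promotes elastin assembly together with fibulin-5, measured 223 and 353 CPM (0.66), and Lox, the main elastin and collagen cross-linker, 8.51 and 15.8 CPM (0.89).

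In aECs 11 of the 18 had enough UMIs. Lox was higher there, at 23.4 and 64.3 CPM (1.46, 0.89 to 2.08), on 28 and 257 UMIs. Lower were Mfap2, a microfibril gene, at 30.9 and 4.26 CPM, Hmcn1 at 25.9 and 8.51 CPM and Mmrn1 at 16.7 and 6.01 CPM. Over all genes in aECs 5.75% were higher and 3.94% lower. Ltbp4 was high in these cells in both libraries, with 1188 and 1403 CPM (0.24). The arterial gate drew on different clusters in the 2 libraries, as given above, and genes of this list were not measured by cluster.

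The genes whose profile was most like that of Eln were sought among 15163 genes, over 15 classes in each of the 2 libraries, by Pearson's r of log2(CPM + 1). The 30 points share libraries and are a description. The 8 nearest genes were Bcam at 0.93, Cavin1 at 0.91, Spop at 0.89, Lrrfip1 and Utrn at 0.88, Syne2 and Tns1 at 0.87 and Dbndd2 at 0.86. Among the members, r with Eln was 0.61 for Fbln2, 0.49 for Fbln5, 0.40 for Fbn1 and -0.36 for Emilin1. For Fbln5 the 5 nearest were Klhl8 at 0.87, Fat4 at 0.85, Mrgpre at 0.84 and Gas6 and Dram1 at 0.83, with 0.69 for Fbn1 and 0.63 for Fbln2.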

How the data were processed

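The deposited tables hold UMI counts per cell and gene, which per the file headers the authors made with version 1.11 of the BD Rhapsody whole-transcriptome pipeline on GRCm38 with GENCODE vM19, intronic reads included and UMIs corrected for errors (RSEC). The labels name build mm10. Cells with 500 to 6000 genes and under 25% mitochondrial UMIs were kept. Scrublet marked 6.53% of Control and 6.60% of Dach1OE cells as doublets, which stayed in. Cells were gated into 15 classes by markers that hold no elastic fibre gene, and 10.5% and 10.4% fell in no broad class. Cells of a broad class without a subtype also lay outside the 15. These were 2770 Control and 3330 Dach1OE ECs, 212 and 456 mural cells and 965 and 893 stromal cells. A few Schwann and skeletal muscle cells lay outside as well. UMIs were summed per class and library and divided by the class total to CPM, with exact Poisson intervals, and ratios had exact conditional binomial intervals. Shares of cells had Clopper-Pearson intervals. Leiden clusters were built on 2000 variable genes and 30 components. A ratio of 2-fold on at least 20 UMIs was called large. Named genes were all 9 members, the genes of the wider list past 2-fold or at its ends, and the nearest profiles. The members and lists were chosen with earlier results of these data known. Calculations used Python 3.11.15, scanpy 1.11.5, scipy 1.17.1 and leidenalg 0.10.2, and were tested on simulated data. Alternatives changed the UMI column, cell limits, gates, depth, weights, doublets, cell sex and make-up.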

Additional observations from a re-analysis of the deposited data

Results flagged for a closer look

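Several genes had opposite log2 ratios of Dach1OE over Control in neighbouring cell classes, and with 1 library per group none of these differences was tested. Eln was higher in arterial ECs (2.20) and lower in type R ECs (-0.53). Fbln2 was higher in arterial ECs (0.37) and lower in metaphyseal ECs (-1.11), as was Fbn1 (0.86 and -1.16), although the metaphyseal Fbn1 values lay under those of haematopoietic cells and were not read as a change. These arterial values turned with equal weight of the 2 main arterial clusters, as given with the arterial ECs. Fbln5 was higher in arterial ECs (0.82) and lower in Scgb3a1 ECs (-1.82), on 8 Control UMIs. Among mural cells Eln was higher in smooth muscle cells (0.37, but -0.71 with under 10% mitochondrial UMIs) and lower in pericytes (-1.78). The smooth muscle gate held fewer cells of the cluster low in Eln in the Dach1OE library, 6.21% against 24.2%, and the ratio was -0.05 in its largest cluster. Among stromal cells Eln was higher in Adipoq-Lepr stroma (1.48) and lower in osteocytes (-1.53), and Fbln5 stood at 0.09 and -1.33 in the same classes. The stromal Eln value rests on 4 cells for 50% of its Dach1OE UMIs, and both osteocyte genes were at the level of haematopoietic cells in the Dach1OE library, with ratios that turned to 0.043 for Eln in Xist cells and 1.26 for Fbln5 with Leiden clusters.

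Xist cells and Y cells went opposite ways in some classes and clusters. Fbln1 in pericytes had a log2 ratio of -1.14 in Xist cells and 1.23 in Y cells, and Mfap5 in metaphyseal stroma 0.78 and -1.11. Within clusters the same was seen for Eln in mural cluster 0, with 0.85 and -0.27, and for Fbln5 in mural cluster 2, with -1.27 and 1.95. These differences were not tested either, and with 2 mice per library cell sex cannot be told apart from the individual mouse.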

How the results depend on the processing

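No paired analysis was possible because each group holds 1 library, and for the same reason no library was left out. Over the 18 log2 ratios of Dach1OE over Control that were at least 2-fold, 219 values under other settings were computed, of which 214 kept their sign and 176 stayed at least 2-fold.

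The log2 ratio of Eln in all ECs, 1.52, became 1.63 with under 10% mitochondrial UMIs, 1.65 with at least 1000 genes, 1.98 without cells with a smooth muscle marker UMI, 1.21 as a mean of CPM per cell, 1.27 thinned to 1000 UMIs, 1.59 in Xist cells, 1.91 in Y cells, 0.53 with equal weight of EC subtypes, 1.38 for Dach1OE ECs without Dach1 UMIs and 0.98 without arterial and type R ECs. The last setting, the equal weight of clusters and the ECs without type R cells below were chosen after seeing the data. In arterial ECs, in the same order up to Y cells, 2.20 became 2.54, 2.37, 2.61, 1.79, 1.94, 2.99 and 2.31, then 2.10 without Dach1 UMIs, and -0.31 with equal weight of the 2 main clusters, where by construction the shares of the clusters no longer count. In type R ECs -0.53 became in that order -0.44, -0.44, -0.36, -0.74, -0.79, -0.74 and -0.23, then -0.15 without Dach1 UMIs and -0.38 with Leiden clusters in place of gates. In pericytes -1.78 became -2.02 with under 10% mitochondrial UMIs, -1.90 without Scrublet-marked cells, -1.39 with Leiden clusters, -1.47 in Xist cells and -1.90 in Y cells.

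Of the 9 genes 2 were at least 2-fold higher in all ECs, against 1 as a mean per cell or without Dach1 UMIs, 4 in Y cells, 3 without cells with a smooth muscle marker UMI and 0 with equal weight of subtypes or without arterial and type R ECs. The 1 lower gene became 0 with Leiden clusters or without arterial and type R ECs. The log2 ratio of Eln in arterial over other ECs, 1.55 in Control, became 1.30 with under 10% mitochondrial UMIs, 1.70 without smooth muscle marker UMIs, 1.76 as a mean per cell, 1.36 with Leiden clusters and 2.44 without type R ECs. In Dach1OE 3.23 became 3.13, 3.47 and 3.65 for the first, second and last of these and 3.05 without Dach1 UMIs. The share of genes at least 2-fold apart in all ECs, 7.32%, became 4.54% at 100 UMIs and 14.1% at 1 UMI.

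Among ratios past 2-fold, signs turned besides for Eln in osteocytes in Xist cells (0.043 in place of -1.53), Fbln5 in osteocytes with Leiden clusters (1.26 in place of -1.33), Mfap5 in Y cells of osteocytes (-2.21 in place of 1.14) and of haematopoietic cells (0.069 in place of -1.25), and Loxl1 in arterial over other ECs thinned to 1000 UMIs (0.081 in place of -1.45). Of 1187 values for 101 smaller ratios, 175 turned sign. Among those printed above were Eln in smooth muscle cells with under 10% mitochondrial UMIs (-0.71), and Fbln5 (-0.75) and Fbn1 (-0.042) in all ECs without arterial and type R ECs. That Fbn1 value lay under the level of haematopoietic cells in each library and was not read as a change. Others were Fbln2 (-0.64), Fbln5 (-0.36) and Fbn1 (-0.22) in arterial ECs with equal weight of both clusters. Fbln2 in type R ECs, -0.15, was 0.056 with Leiden clusters, 0.13 without Dach1 UMIs and 0.20 in Y cells. The cause was not tested. Depth limits Fbln1, Mfap4, Mfap5 and Loxl1 in ECs, which rest on few UMIs.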
